A study of Danio rerio with 8 samples.

Results

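The genes described here encode the enzymes and carriers by which the heart burns fatty acids and runs the citrate cycle, with the proteins that bring pyruvate to that cycle and a pair of regulators of these genes. The set was a list of 52 zebrafish genes, searched in the deposited table by symbol or, where that failed, by synonym. The symbol stripped of its paralog letter was searched as well. All 52 were matched, to 57 of the 31388 gene identifiers (IDs) in the table. Of these, 44 IDs were matched by symbol, 9 by a synonym and 4 by the symbol without its paralog letter. The 56 IDs with at least 1 TPM in 2 libraries were kept. They stand for 51 genes, because cd36, a fatty acid receptor at the cell surface, had 1 ID (ENSDARG00000032639) that reached at most 0.07 TPM in any library. TPM, a transcript's share of its library scaled to a fixed total, is a level corrected for transcript length, so levels of different genes can be set side by side.

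The libraries were made from adult zebrafish of the line Tg(-6.8wt1a:EGFP), whose green fluorescent protein (GFP) is driven by upstream sequence of wt1a, a gene for an epicardial transcription factor. The fish were 3 to 9 months old and received no treatment, and 3 to 5 ventricles were pooled per sample. Each of 4 pools gave a library of cells sorted as GFP-positive and a library of cells sorted as GFP-negative, so each labelled sort had 4 libraries and there were 8 in all. By the series' design text and the pool label, the libraries of a pool share their hearts. Throughout, the GFP-negative library of a pool is given before the GFP-positive library.

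Long-chain fatty acids enter the cell, are activated to acyl-CoA and cross into mitochondria as acylcarnitines, through the carnitine shuttle. There the beta-oxidation spiral shortens them step by step and releases acetyl-CoA, while electrons pass through the electron transfer flavoprotein (ETF) to the respiratory chain. Acetyl-CoA from fatty acids and from pyruvate is oxidised in the citrate cycle. Cardiac muscle is one of the tissues that depend most on this route, and its cells are rich in mitochondria.

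The reporter's own gene did not follow the labelled sort. wt1a ranged from 1.15 to 2.59 TPM over pools 1 and 2 and from 39.5 to 106.8 TPM over pools 3 and 4, with the library labelled GFP-negative above its partner in pools 1, 3 and 4. The labels of sort and pool were used as given, and whether they match the cells of each library was not tested. All comparisons of pools and of sorts below rest on these labels. Between 12332 and 14783 genes per library were listed at 1 TPM or more. Pools 1 and 2 stood apart from pools 3 and 4 in cell type markers. Of 38 IDs of cardiomyocyte markers, 33 were detected and none was listed at 0 in all libraries, and their summed level was 30006 to 41929 TPM in pools 1 and 2 against 2688 to 6601 TPM in pools 3 and 4. The 19 fibroblast markers summed to 406 to 752 TPM in pools 1 and 2 against 8599 to 17712 TPM in pools 3 and 4. Mitochondrially encoded transcripts took 10.3% to 14.2% of the TPM in pools 1 and 2 against 2.13% to 5.06% in pools 3 and 4.

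Since TPM of a library always sum to the same total, libraries in which a few genes are very abundant leave less for the rest. Levels below are TPM as deposited. Differences are of log2(scaled TPM + 1), after libraries were scaled to each other by a trimmed mean of log ratios, and they understate the change of low genes. The scaling divided the libraries of pools 1 and 2 by 0.603 to 0.818 and those of pools 3 and 4 by 1.21 to 1.89. It moved the median difference of all genes tested from 0.80 with TPM as deposited to -0.03. Where the direction of an ID of the set rests on the scaling, the value with TPM as deposited is given beside it.

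Most genes of fatty acid oxidation and the citrate cycle were lower in pools 3 and 4 than in pools 1 and 2, whichever sort the library was labelled with. Of the 56 kept IDs, 55 were tested, those that reached 1 TPM in 4 or more libraries, and 7 of these were under 1 TPM in some library. A limma F test of the 4 pools called 42 of the 55 at an adjusted p under 0.05, and the mean of pools 3 and 4 was the lower in all 42. Among them, cpt1b, ppargc1a, mpc2 ENSDARG00000037679 and sdhda ENSDARG00000030139 reached 1 TPM in 4 libraries only with pools 1 and 2, where they were higher. They are included in the counts, and their calls are no separate support. Over all 13877 genes tested, the F test called 12.9%, and 8.15% were called with the lower mean in pools 3 and 4. In single contrasts, 42 IDs were called lower in pool 3 than in pool 1 (7.83% of all genes), 35 in pool 4 than in pool 1 (6.69%), 43 in pool 3 than in pool 2 (8.55%) and 40 in pool 4 than in pool 2 (7.63%). None was called higher in any of these contrasts, and 34 were called lower in all 4. Between pools 1 and 2, and between pools 3 and 4, limma called no ID of the set, and 0 and 4 reached an unadjusted p under 0.05. For these counts, for the absence of calls of higher and for the 34, no share of all genes is given here. They are thus not read as particular to the set. The 4 contrasts share their pools, and the arrangement of pools 1 and 2 against 3 and 4 came from earlier results of these data, so it was given no test of its own. The single contrasts leaned on pairs of libraries. Without a library of pool 1, 13 or 15 IDs were called lower in pool 3 than in pool 1 (2.05% or 1.94% of all genes) and 6 or 8 lower in pool 4 than in pool 1 (1.19% or 1.07%). Without a library of pool 2 it was 21 or 28 for pool 3 against pool 2 (2.77% or 3.6%) and 13 or 21 for pool 4 against pool 2 (1.79% or 2.67%). Without a library of pool 4 it was 19 for pool 4 against pool 1 (2.97% or 3.08%) and 24 or 25 for pool 4 against pool 2 (3.72% or 3.6%). In such fits the lone library of a pool is assumed to vary like those of the other pools. With TPM as deposited the counts were 19, 20, 31 and 26, against 4.24%, 3.33%, 5.21% and 4.24% of all genes.

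The mean difference over the 4 contrasts was negative for all 55 IDs, with a median of -2.29 and a range from -3.42 for idh2 to -0.16 for cpt1aa, where the median over all genes was -0.03. With TPM as deposited the median was -1.32 and 49 of 55 were negative, where the median over all genes was 0.80. All libraries of pools 1 and 2 were above all libraries of pools 3 and 4 for 46 of the 55 IDs in scaled TPM, against 14.5% of all genes. In TPM as deposited this held for 33 IDs, against 6.26% of all genes. No ID showed the opposite order on either scale, and the share of all genes with that order is not given here. The spread in these tests came from the libraries of the same pool, so the p-values say nothing of how much sets of hearts vary. With TPM as deposited the F test called 28 IDs, 27 lower and 1 higher in pools 3 and 4, where it called 28.9% of all genes and 5.02% with the lower mean in pools 3 and 4. The 15 IDs that lost the call on that scale were acads, echs1, acaa2, eci2, decr1, etfa, mpc2 ENSDARG00000024478, idh3a, ogdha ENSDARG00000034270, dlst, sdha, sdhc, sdhda ENSDARG00000030139, ppargc1a and pparab, though each was still negative. When each library or each pool was left out in turn, in 12 fits, 30 to 42 IDs were called, where 6.67% to 10.3% of all genes were, and 26 of the 42 kept their call in every fit. Without the GFP-negative library of pool 3, which has the most wt1a and the largest scaling factor, the F test called 40 IDs.

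**Figure D1:**
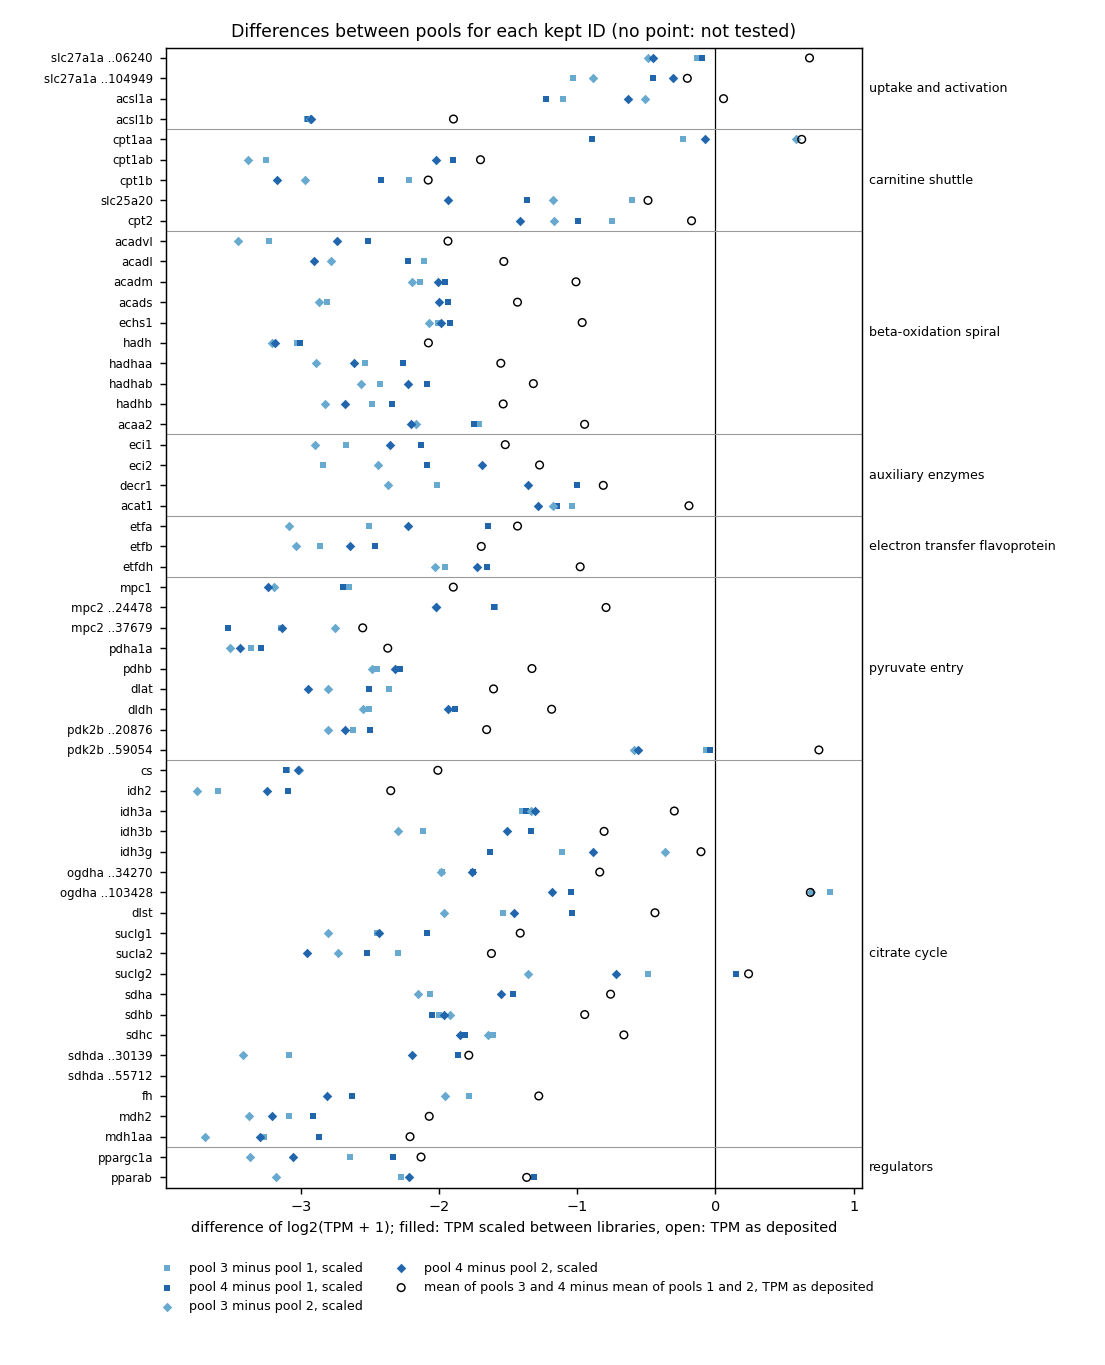
Differences between pools for each kept ID, grouped by role, on the log2(TPM + 1) scale. Filled points are the 4 contrasts of pools 3 and 4 with pools 1 and 2 after scaling, and open circles are the difference of means in TPM as deposited; most points lie left of 0, and the open circles lie to the right of the filled ones by about the shift of all genes.

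Counts of calls by marker list and by role below are to be read against all genes. Of these the F test called 12.9%, and 8.15% with the lower mean in pools 3 and 4. The cardiomyocyte markers moved the same way as the metabolic genes, and further. Of 33 tested, 31 were called by the F test, all 31 with the lower mean in pools 3 and 4, and their median difference was -3.41, below the -2.29 of the metabolic genes. Endothelial and endocardial markers were called in 19 of 26 (18 lower and 1 higher in pools 3 and 4) and erythrocyte markers in 6 of 7, all lower. Fibroblast markers were called in 18 of 19, 17 of them higher, and epicardial markers in 8 of 14, 6 of them higher. Macrophage and myeloid markers were called in 4 of 15, 3 of them lower. Median differences were -2.83 for endothelial and endocardial markers and -4.61 for erythrocyte markers, so these also moved further than the metabolic genes. They were 2.99 for fibroblast, 0.59 for epicardial and -1.64 for macrophage and myeloid markers. The part of cardiomyocyte content in the differences below was not tested gene by gene. In bulk libraries, fewer cells of a type and less RNA of a gene per cell cannot be told apart, and the pool number cannot be told apart from whatever else differed between the preparations.

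Of fatty acid uptake and activation, 1 of 4 tested IDs was called, the smallest share of any role. That was acsl1b (ENSDARG00000003854), an acyl-CoA synthetase that activates long-chain fatty acids, at 64.5 and 74.6 TPM in pool 1, 79.9 and 83.0 in pool 2, 28.1 and 19.4 in pool 3, and 12.3 and 21.3 in pool 4. The libraries of pools 1 and 2 were all above those of pools 3 and 4. The 4 contrasts of pools 3 and 4 with pools 1 and 2 lay between -2.95 and -2.92 (SE 0.32), and the limma F test of pool gave an adjusted p of 0.00141. The call held in all 12 fits with a library or pool left out. Its paralog acsl1a (ENSDARG00000030514, listed as ACSL1) was listed at 8.05 and 5.67 TPM in pool 1, 7.81 and 3.25 in pool 2, 10.1 and 6.01 in pool 3, and 5.20 and 4.53 in pool 4. In acsl1a the pools overlapped, the contrasts lay between -1.22 and -0.51 (SE 0.43) and the limma adjusted p was 0.243; with TPM as deposited its mean difference was 0.06, so its direction rests on the scaling. The fatty acid transporter slc27a1a had 2 IDs. ENSDARG00000006240 was listed at 5.60 to 12.1 TPM in pools 1 and 2 against 8.77 to 24.1 TPM in pools 3 and 4, and ENSDARG00000104949 at 0.12 to 3.65 and 0.24 to 1.77 TPM. Neither was called (limma adjusted p = 0.803 and 0.644), and the mean difference of the first, -0.29, became 0.68 with TPM as deposited.

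Of 5 tested IDs of the carnitine shuttle, 2 were called, and the mean difference after scaling was negative for all 5. Carnitine palmitoyltransferase 1, which makes the acylcarnitines and is the controlled step of entry into mitochondria, is encoded by several genes. cpt1ab (ENSDARG00000062054) was the most abundant of the 3 measured in pools 1 and 2, at 21.4 and 16.9 TPM in pool 1, 29.0 and 21.3 in pool 2, 6.79 and 2.15 in pool 3, and 8.45 and 9.37 in pool 4. cpt1b (ENSDARG00000058285), whose mammalian counterpart is the muscle form, was listed at 3.72 and 3.22 TPM in pool 1, 7.44 and 7.53 in pool 2, 1.55 and 0.12 in pool 3, and 0.58 and 0 in pool 4. Both were higher in every library of pools 1 and 2 than in any of pools 3 and 4. The contrasts of cpt1ab lay between -3.38 and -1.90 (SE 0.39, limma F test adjusted p = 0.00314). Those of cpt1b, which is near or at 0 in 3 libraries of pools 3 and 4, lay between -3.17 and -2.21 (SE 0.53, adjusted p = 0.0126). cpt1b met the filter for testing only with pools 1 and 2, where it is high, so its call is no separate support. The cpt1b call was lost without pool 2 and without the GFP-positive library of pool 1 or of pool 2 (adjusted p up to 0.0748).

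The third, cpt1aa (ENSDARG00000059770, listed as CPT1A), was listed at 1.94 and 2.81 TPM in pool 1, 0.70 and 1.98 in pool 2, 7.91 and 3.41 in pool 3, and 1.02 and 3.03 in pool 4. Its highest level was in pool 3, the libraries overlapped between the pools, and its limma adjusted p was 0.635. Its contrasts lay between -0.89 and 0.58 (SE 0.61), and its mean difference of -0.16 became 0.62 with TPM as deposited. The carrier slc25a20 (ENSDARG00000040401), which moves acylcarnitine across the inner membrane, was listed at 1.88 and 4.73 TPM in pool 1, 6.72 and 4.93 in pool 2, 1.12 and 13.4 in pool 3, and 1.58 and 1.48 in pool 4. Its lowest and its highest value were the libraries of pool 3. cpt2 (ENSDARG00000038618), which turns acylcarnitine back into acyl-CoA inside, was listed at 3.64 and 5.23 TPM in pool 1, 7.21 and 7.21 in pool 2, 7.15 and 5.96 in pool 3, and 3.33 and 3.91 in pool 4. Those levels overlapped as deposited, and after scaling all libraries of pools 1 and 2 were the higher. Neither slc25a20 nor cpt2 was called (limma adjusted p = 0.327 and 0.171). Their contrasts lay between -1.94 and -0.60 (SE 0.73) and between -1.41 and -0.75 (SE 0.44). At such low levels and with such SEs, a missed call does not show that the pools are alike.

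In the beta-oxidation spiral all 10 IDs were called by the F test, all 10 were lower in pools 3 and 4, and their median difference was -2.45. In all 10 the scaled libraries of pools 1 and 2 were all above those of pools 3 and 4 (14.5% of all genes). In 8 this held as deposited too (6.26% of all genes). The first step is taken by acyl-CoA dehydrogenases that differ in the chain length they accept. For very long chains, acadvl (ENSDARG00000016687) was listed at 91.5 and 82.0 TPM in pool 1, 126 and 115 in pool 2, 23.9 and 24.2 in pool 3, and 33.99 and 23.1 in pool 4. For long chains, acadl (ENSDARG00000088357) was listed at 14.97 and 13.9 TPM in pool 1, 31.5 and 24.7 in pool 2, 11.1 and 5.64 in pool 3, and 3.58 and 6.74 in pool 4. For medium chains, acadm (ENSDARG00000038900) was listed at 121 and 120.0 TPM in pool 1, 171 and 129.6 in pool 2, 86.6 and 64.0 in pool 3, and 63.7 and 53.9 in pool 4. acadm was thus the most abundant of these in every library, and the mean difference between the pools was largest for acadvl. Contrasts lay between -3.45 and -2.52 for acadvl (SE 0.28, limma F test adjusted p = 0.00105), between -2.90 and -2.11 for acadl (SE 0.42, adjusted p = 0.00586) and between -2.20 and -1.96 for acadm (SE 0.24, adjusted p = 0.00165). The call of acadl was lost without pool 2 (adjusted p = 0.0591).

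Later steps for long chains run on the mitochondrial trifunctional protein, a complex of alpha subunits, encoded here by hadhaa and hadhab, and a beta subunit encoded by hadhb. hadhaa (ENSDARG00000057128) was listed at 32.1 and 35.6 TPM in pool 1, 56.1 and 47.6 in pool 2, 27.1 and 7.80 in pool 3, and 12.2 and 12.9 in pool 4. hadhab (ENSDARG00000060594, listed as HADHA) was listed at 27.6 and 22.1 TPM in pool 1, 34.9 and 30.2 in pool 2, 12.97 and 9.93 in pool 3, and 9.11 and 11.5 in pool 4. The beta subunit hadhb (ENSDARG00000102055) was listed at 54.7 and 59.5 TPM in pool 1, 73.8 and 101 in pool 2, 28.2 and 25.5 in pool 3, and 25.9 and 16.4 in pool 4. In each of the 3 genes every library of pools 1 and 2 was above every library of pools 3 and 4. Their contrasts lay between -2.89 and -2.26, between -2.56 and -2.09 and between -2.83 and -2.34, with SEs of 0.44, 0.32 and 0.35 and limma adjusted p of 0.00707, 0.00282 and 0.0028. The thiolase acaa2 (ENSDARG00000038881), which splits off acetyl-CoA at the end of a turn, was listed at 19.5 and 18.2 TPM in pool 1, 25.6 and 37.8 in pool 2, 10.3 and 21.0 in pool 3, and 14.5 and 6.69 in pool 4. As deposited, the GFP-positive library of pool 3 reached into the range of pools 1 and 2. Its contrasts lay between -2.20 and -1.71 (SE 0.51, limma F test adjusted p = 0.0427), and the call was lost in 8 of 12 fits with a library or pool left out, those without pool 1, 2 or 3, either library of pool 1 or 2, or the GFP-negative library of pool 3 (adjusted p up to 0.162).

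The spiral also holds 3 enzymes that act on shorter chains. hadh, the short-chain hydroxyacyl-CoA dehydrogenase, was listed at 48.0 to 77.7 TPM in pools 1 and 2 against 9.22 to 17.3 TPM in pools 3 and 4 and had the largest mean difference of the spiral, -3.10 (limma F test adjusted p = 0.00149). acads, the short-chain acyl-CoA dehydrogenase, was listed at 17.1 to 27.9 and 3.03 to 12.7 TPM (adjusted p = 0.0157). echs1, the enoyl-CoA hydratase, was listed at 30.8 to 43.9 and 12.5 to 31.7 TPM (adjusted p = 0.0185). Among these only hadh kept its call in all 12 fits. The calls of acads and echs1 were lost without pool 1, without either of its libraries and without the GFP-positive library of pool 2, and that of echs1 also without either library of pool 4.

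Of 4 enzymes that handle unsaturated chains and the last thiolysis, 3 were called, all lower in pools 3 and 4, and the median difference of the 4 was -1.98. The enoyl-CoA isomerases eci1 and eci2 were listed at 19.5 to 35.2 and 23.0 to 27.0 TPM in pools 1 and 2 against 7.16 to 10.7 and 5.05 to 14.8 TPM in pools 3 and 4. decr1, the dienoyl-CoA reductase, was listed at 5.89 to 10.9 TPM in pools 1 and 2 against 2.42 to 6.09 TPM in pools 3 and 4. The limma F test called all 3, with adjusted p of 0.00411, 0.0141 and 0.0241. Only eci1 kept its call in all 12 fits: the call of eci2 was lost without pool 1, either of its libraries or the GFP-positive library of pool 2, and that of decr1 without pool 1, 2 or 3 or any library of them. The acetyl-CoA acetyltransferase acat1 (ENSDARG00000045888), which also works in ketone and isoleucine metabolism, was listed at 9.21 and 8.07 TPM in pool 1, 13.2 and 9.83 in pool 2, 20.2 and 5.46 in pool 3, and 7.46 and 6.23 in pool 4. Its highest level as deposited was in the GFP-negative library of pool 3, while after scaling all libraries of pools 1 and 2 were the higher. It was not called (adjusted p = 0.175, contrasts between -1.28 and -1.04).

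The ETF takes electrons from the acyl-CoA dehydrogenases, and etfdh passes them on to ubiquinone. The beta subunit etfb (ENSDARG00000009250) was listed at 99.0 and 91.8 TPM in pool 1, 123 and 134 in pool 2, 62.4 and 19.4 in pool 3, and 41.9 and 24.6 in pool 4. Every library of pools 1 and 2 was above every library of pools 3 and 4, with contrasts between -3.03 and -2.46 (SE 0.42, limma F test adjusted p = 0.00451). The alpha subunit etfa (ENSDARG00000101631) was listed at 10.8 and 27.1 TPM in pool 1, 31.4 and 30.4 in pool 2, 1.76 and 19.1 in pool 3, and 7.55 and 12.4 in pool 4. In pools 1 and 3 it was low in the GFP-negative library, and the pools overlapped as deposited. The contrasts of etfa lay between -3.08 and -1.64 (SE 0.59, adjusted p = 0.0298), and the call was lost without pool 1 or 2, either library of pool 1, the GFP-negative library of pool 2 or either library of pool 4. etfdh (ENSDARG00000038834) was listed at 8.74 and 6.98 TPM in pool 1, 7.96 and 12.1 in pool 2, 14.5 and 0.60 in pool 3, and 2.54 and 5.88 in pool 4. After scaling, it was higher in all libraries of pools 1 and 2 than in any of pools 3 and 4. It was not called with all libraries (limma F test adjusted p = 0.253), at a mean difference of -1.84. The GFP-negative library of pool 3 was its highest value as deposited, though not after scaling. Without that library the mean difference was -2.58.

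**Figure D2:**
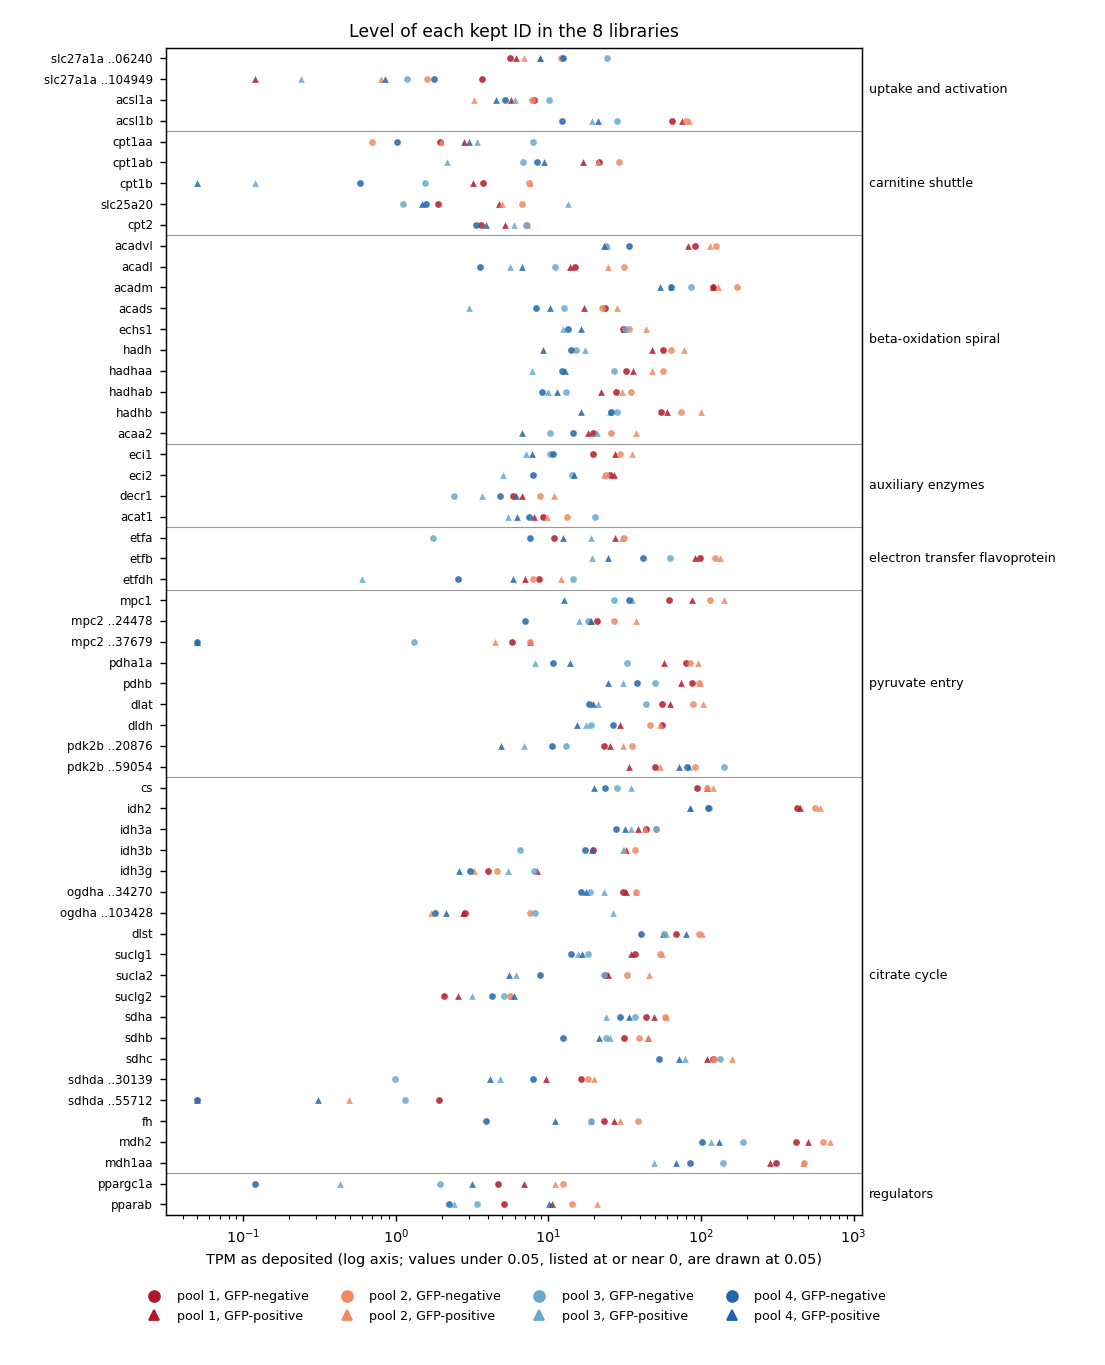
Level of each kept ID in every library, in TPM as deposited on a log axis, grouped by role. Red and orange points are pools 1 and 2, blue points pools 3 and 4, circles GFP-negative and triangles GFP-positive libraries; the reds lie to the right of the blues for most IDs, and circles and triangles are mixed.

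Of 9 tested IDs of pyruvate entry, 8 were called, all 8 lower in pools 3 and 4, and 7 of them kept the call in all 12 fits. The mitochondrial pyruvate carrier has subunits MPC1 and MPC2. mpc1 (ENSDARG00000093448) was listed at 61.9 and 87.2 TPM in pool 1, 115 and 142 in pool 2, 27.1 and 35.2 in pool 3, and 33.6 and 12.6 in pool 4. mpc2 had 2 IDs, of which ENSDARG00000024478 was listed at 20.9 and 18.8 TPM in pool 1, 27.0 and 37.8 in pool 2, 18.1 and 16.0 in pool 3, and 7.02 and 19.1 in pool 4. The other, ENSDARG00000037679, was listed at 5.73 and 7.61 TPM in pool 1, 7.63 and 4.46 in pool 2, 1.31 and 0 in pool 3, and 0 and 0 in pool 4. mpc1 and the second mpc2 ID did not overlap between the pools. The second mpc2 ID was listed at 0 in 3 libraries, so no fold is given for it (limma F test adjusted p = 0.00774). It met the filter for testing only with pools 1 and 2, where it is high, so its call is no separate support. The contrasts of mpc1 lay between -3.24 and -2.65 (SE 0.49, limma F test adjusted p = 0.00607). Those of the first mpc2 ID lay between -2.02 and -1.60 (SE 0.41, adjusted p = 0.0225), and this call was lost without pool 2, without any single library of pools 1 and 2 and without the GFP-positive library of pool 3.

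The pyruvate dehydrogenase complex turns pyruvate into acetyl-CoA. Its E1 subunits are pdha1a (ENSDARG00000012387), listed at 79.9 and 57.1 TPM in pool 1, 84.3 and 95.6 in pool 2, 32.9 and 8.16 in pool 3, and 10.7 and 13.9 in pool 4, and pdhb. pdhb (ENSDARG00000021346) was listed at 86.8 and 73.8 TPM in pool 1, 97.5 and 98.2 in pool 2, 50.1 and 30.8 in pool 3, and 37.9 and 24.6 in pool 4. Both were higher in all libraries of pools 1 and 2, pdha1a by more. Contrasts lay between -3.51 and -3.29 for pdha1a (SE 0.49, limma F test adjusted p = 0.00356) and between -2.48 and -2.28 for pdhb (SE 0.29, adjusted p = 0.00209). The E2 subunit dlat was listed at 55.7 to 104 TPM in pools 1 and 2 against 18.5 to 43.8 TPM in pools 3 and 4 (adjusted p = 0.00256). The E3 subunit dldh, listed as DLD and shared with the oxoglutarate dehydrogenase complex, was listed at 29.5 to 55.7 and 15.3 to 26.3 TPM (adjusted p = 0.00707).

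Pyruvate dehydrogenase kinases switch that complex off by phosphorylation, and 2 IDs are listed as PDK2. ENSDARG00000020876 was listed at 23.2 and 25.4 TPM in pool 1, 35.3 and 30.9 in pool 2, 12.96 and 6.91 in pool 3, and 10.6 and 4.87 in pool 4. ENSDARG00000059054 was listed at 50.03 and 33.6 TPM in pool 1, 91.9 and 54.3 in pool 2, 141 and 83.6 in pool 3, and 81.6 and 71.7 in pool 4. The first was lower in all libraries of pools 3 and 4, with contrasts between -2.81 and -2.50 (SE 0.40, limma F test adjusted p = 0.00409). The second overlapped between the pools and was the 1 ID of the set called higher in pools 3 and 4 in TPM as deposited: its mean difference as deposited was 0.75, with a limma adjusted p of 0.0314. After scaling, its contrasts were negative, between -0.59 and -0.04 (SE 0.24), and it was not called (adjusted p = 0.318), so its direction rests on the scaling. Ratios within a library need no scaling. The ratio of the second to the first was 1.33 to 2.60 in pools 1 and 2 against 7.71 to 14.7 in pools 3 and 4. Its ratio to pdha1a, an E1 subunit that such kinases phosphorylate, was 0.568 to 1.09 in pools 1 and 2 against 4.29 to 10.2 in pools 3 and 4. In neither ratio did the pools overlap. Reads of near-identical copies can be split between IDs, and which ID is the pdk2b of the list was not settled by the symbols. With both IDs summed the gene was not called (limma adjusted p = 0.0573).

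The citrate cycle held the most abundant genes of the set and its largest difference, that of idh2. Of 18 tested IDs, 14 were called, all 14 lower in pools 3 and 4, with a median difference of -1.93. In 16 the scaled libraries of pools 1 and 2 were all above those of pools 3 and 4 (14.5% of all genes). In 11 this held as deposited (6.26% of all genes). Citrate synthase, cs (ENSDARG00000103364), which joins acetyl-CoA to oxaloacetate, was listed at 94.1 and 110.1 TPM in pool 1, 109 and 119 in pool 2, 28.1 and 34.9 in pool 3, and 23.6 and 19.8 in pool 4. The NADP-dependent mitochondrial isocitrate dehydrogenase idh2 (ENSDARG00000003795) was listed at 429 and 444 TPM in pool 1, 555 and 599 in pool 2, 114 and 85.2 in pool 3, and 111 and 84.8 in pool 4. Malate dehydrogenase 2, mdh2 (ENSDARG00000043371), which closes the cycle, was listed at 417 and 501 TPM in pool 1, 635 and 704 in pool 2, 188 and 117 in pool 3, and 101 and 132 in pool 4. In these 3 genes the lowest library of pools 1 and 2 was above the highest of pools 3 and 4. The contrasts lay between -3.11 and -3.01 for cs (SE 0.28, limma F test adjusted p = 0.00102), between -3.75 and -3.09 for idh2 (SE 0.26, adjusted p = 0.000819) and between -3.38 and -2.91 for mdh2 (SE 0.29, adjusted p = 0.00102). The cytosolic partner of the malate shuttle, mdh1aa (ENSDARG00000017772, listed as MDH1), was listed at 309 and 282 TPM in pool 1, 474 and 469.6 in pool 2, 140.2 and 49.6 in pool 3, and 84.5 and 69.0 in pool 4. It moved with mdh2, with contrasts between -3.69 and -2.87 (SE 0.36, adjusted p = 0.00147). The calls of all 4 genes held in all 12 fits.

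The NAD-dependent isocitrate dehydrogenase, a complex of IDH3 subunits, had smaller differences. idh3a (ENSDARG00000030278), its catalytic subunit, was listed at 43.3 and 38.8 TPM in pool 1, 51.0 and 42.7 in pool 2, 50.9 and 34.8 in pool 3, and 27.8 and 31.7 in pool 4. As deposited the pools overlapped, and the scaled contrasts lay between -1.40 and -1.30 (SE 0.27, limma F test adjusted p = 0.0147). The call of idh3a was lost without pool 1 and without any single library of pools 1 and 2 (adjusted p up to 0.0736), and with TPM as deposited (0.337). idh3b and idh3g were not called (adjusted p = 0.0538 and 0.238), at 19.6 to 36.9 and 3.27 to 8.44 TPM in pools 1 and 2 against 6.52 to 30.9 and 2.61 to 8.06 TPM in pools 3 and 4. For both, all libraries of pools 1 and 2 were the higher after scaling. idh3b was called without pool 3 and without its GFP-positive library (adjusted p = 0.0487 and 0.0153). The ratio of idh2 to idh3a within a library was 9.90 to 14.01 in pools 1 and 2 against 2.23 to 3.98 in pools 3 and 4, with no overlap.

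The oxoglutarate dehydrogenase complex follows. The ID with the symbol ogdha (ENSDARG00000034270), the E1 subunit, was listed at 30.9 and 32.0 TPM in pool 1, 37.8 and 37.6 in pool 2, 18.7 and 23.1 in pool 3, and 16.4 and 17.7 in pool 4. Its pools did not overlap, with contrasts between -1.99 and -1.75 (SE 0.29, limma F test adjusted p = 0.00444). A second ID listed as OGDH, ENSDARG00000103428, was listed at 2.82 and 2.74 TPM in pool 1, 7.57 and 1.70 in pool 2, 8.18 and 26.5 in pool 3, and 1.81 and 2.12 in pool 4. That second ID was high in 1 library, the GFP-positive library of pool 3, and was not called (adjusted p = 0.381). Its mean difference, -0.18, became 0.69 with TPM as deposited. The E2 subunit dlst was listed at 56.0 to 101 and 40.6 to 80.3 TPM in pools 1 and 2 and in pools 3 and 4. It was called (adjusted p = 0.0145), though not without pool 2 or 3 or any library of them (adjusted p up to 0.076).

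Succinyl-CoA ligase has an alpha subunit, suclg1, and alternative beta subunits that make ATP (sucla2) or GTP (suclg2). suclg1 was listed at 34.7 to 55.8 TPM in pools 1 and 2 against 14.1 to 18.2 TPM in pools 3 and 4 and was called in all 12 fits (limma adjusted p with all libraries = 0.00162). sucla2 was listed at 23.3 and 24.5 TPM in pool 1, 32.7 and 45.9 in pool 2, 23.0 and 6.15 in pool 3, and 8.83 and 5.52 in pool 4. It was called (adjusted p = 0.0134), though not without the GFP-positive library of pool 1 or that of pool 4 (adjusted p up to 0.0539). suclg2 was listed at 2.08 and 2.54 TPM in pool 1, 5.57 and 5.70 in pool 2, 5.15 and 3.17 in pool 3, and 4.24 and 5.94 in pool 4. Here the pools overlapped and the limma adjusted p was 0.304. The mean difference of suclg2, -0.60, became 0.24 with TPM as deposited. The ratio of sucla2 to suclg2 was 5.88 to 11.2 in pools 1 and 2 against 0.929 to 4.46 in pools 3 and 4.

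Succinate dehydrogenase, which is also complex II of the respiratory chain, has 4 subunits. Its flavoprotein sdha (ENSDARG00000016721) was listed at 43.8 and 49.4 TPM in pool 1, 58.5 and 59.2 in pool 2, 36.7 and 23.8 in pool 3, and 29.6 and 33.5 in pool 4. The iron-sulfur subunit sdhb (ENSDARG00000075768) was listed at 31.1 and 45.0 TPM in pool 1, 39.3 and 45.1 in pool 2, 24.0 and 25.3 in pool 3, and 12.6 and 21.4 in pool 4. Both were higher in all libraries of pools 1 and 2, with contrasts between -2.15 and -1.47 (SE 0.29, limma F test adjusted p = 0.00498) and between -2.05 and -1.92 (SE 0.28, adjusted p = 0.00342). Of the membrane anchors, sdhc was listed at 109.6 to 161 TPM in pools 1 and 2 against 52.8 to 134 TPM in pools 3 and 4 (adjusted p = 0.0108; 0.0534 without the GFP-negative library of pool 1). sdhda had 2 IDs, both listed as SDHD, and which is the sdhda of the list was not settled by the symbols. ENSDARG00000030139 was listed at 9.58 to 19.9 and 0.99 to 7.89 TPM (adjusted p = 0.017), and its call was lost without pool 2, either library of pool 2 or the GFP-negative library of pool 1. ENSDARG00000055712 reached at most 1.91 TPM and was not tested. Fumarase, fh (ENSDARG00000075132), was listed at 23.0 and 27.0 TPM in pool 1, 38.8 and 29.3 in pool 2, 18.9 and 18.9 in pool 3, and 3.89 and 11.1 in pool 4. Its pools did not overlap, with contrasts between -2.81 and -1.78 (SE 0.40, adjusted p = 0.00696).

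Both regulators were low and were called. The coactivator ppargc1a (ENSDARG00000067829), known in mammals as PGC-1 alpha and for driving mitochondrial gene expression, was listed at 4.69 and 6.91 TPM in pool 1, 12.4 and 10.98 in pool 2, 1.96 and 0.43 in pool 3, and 0.12 and 3.17 in pool 4. The nuclear receptor pparab (ENSDARG00000054323, listed as PPARA), whose mammalian counterpart induces fatty acid oxidation genes, was listed at 5.14 and 10.6 TPM in pool 1, 14.3 and 20.7 in pool 2, 3.42 and 2.41 in pool 3, and 2.23 and 10.0 in pool 4. ppargc1a did not overlap between the pools. pparab did, through the GFP-positive library of pool 4. The contrasts of ppargc1a lay between -3.37 and -2.33 (SE 0.65, limma F test adjusted p = 0.0229) and those of pparab between -3.18 and -1.31 (SE 0.52, adjusted p = 0.02). The call of ppargc1a was lost without pool 1 or 2 or any library of them (adjusted p up to 0.123). That of pparab was lost without pool 2 or any single library of pools 1 and 2 (up to 0.149).

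For some paralogs or alternative subunits the balance within a library, which needs no scaling between libraries, differed between the pools, and for others the ranges overlapped. The ratio of cpt1ab to cpt1aa was 6.02 to 41.4 in pools 1 and 2 against 0.630 to 8.28 in pools 3 and 4, overlapping through the GFP-negative library of pool 4. In pool 3 cpt1aa was the more abundant of the pair. The ratio of acsl1b to acsl1a was 8.01 to 25.5 in pools 1 and 2 against 2.36 to 4.69 in pools 3 and 4, without overlap. The ratio of acadvl to acadm was 0.684 to 0.886 and 0.276 to 0.534, again without overlap. hadhaa to hadhab (1.16 to 1.61 and 0.785 to 2.09) and mdh2 to mdh1aa (1.34 to 1.78 and 1.198 to 2.36) overlapped between the pools. So did cpt1ab to cpt1b (2.82 to 5.75 and 4.38 to 17.9, undefined where cpt1b was 0). The ogdha ID ENSDARG00000034270 to ENSDARG00000103428 (4.99 to 22.1 and 0.872 to 9.05) and sdhc to sdhb (2.43 to 3.84 and 3.12 to 5.58) overlapped as well. For etfb to etfa, the range in pools 1 and 2 (3.38 to 9.16) lay within that of pools 3 and 4. These pairs were chosen with earlier results known, and their ratios were not tested.

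**Figure D3:**
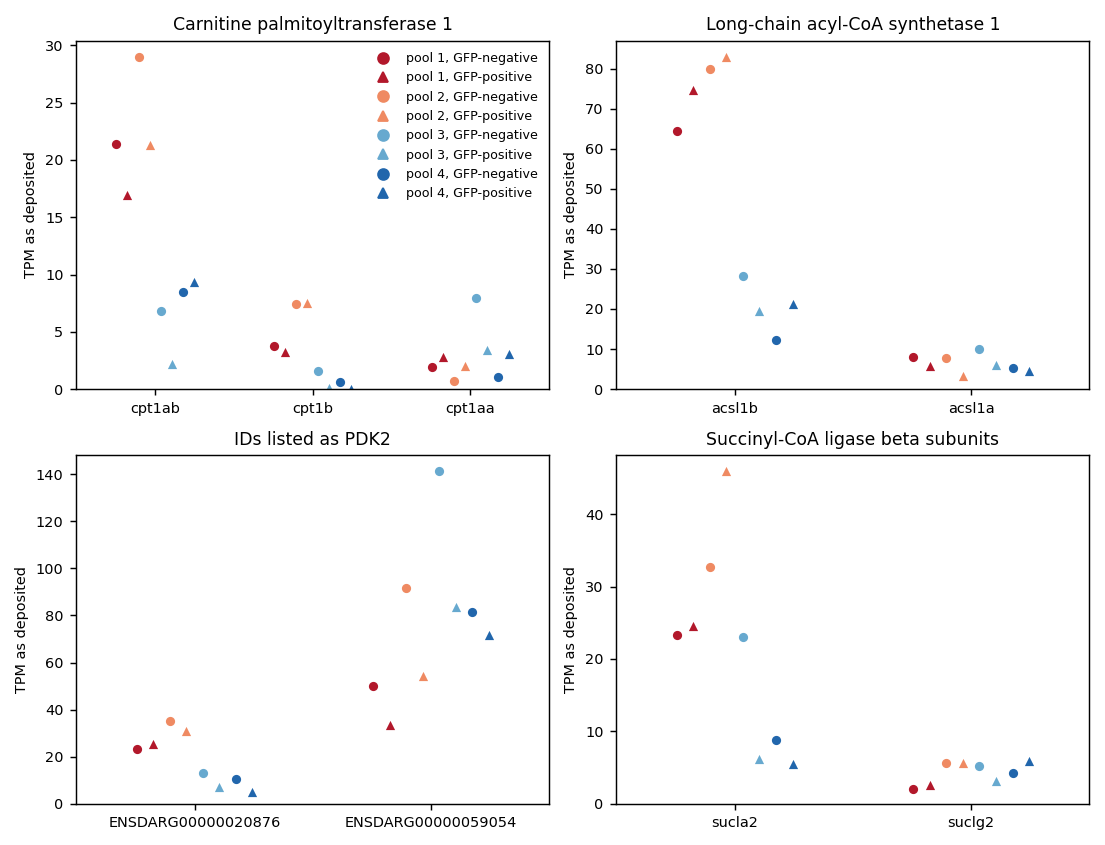
Levels of paralogs and alternative subunits in the 8 libraries, in TPM as deposited, for carnitine palmitoyltransferase 1, acyl-CoA synthetase 1, the IDs listed as PDK2 and the beta subunits of succinyl-CoA ligase. In each panel at least 1 ID is lower in pools 3 and 4 (blue) than in pools 1 and 2 (red and orange), while another ID of the same panel overlaps or, for ENSDARG00000059054, is mostly higher there.

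The order of levels within the set was led by the same genes in both pairs of pools, with 1 exception. In pools 1 and 2 the highest mean levels were those of mdh2 (564 TPM), idh2 (507), mdh1aa (383), acadm (135) and sdhc (128). In pools 3 and 4 they were those of mdh2 (134 TPM), idh2 (98.6), the PDK2-listed ID ENSDARG00000059054 (94.5), mdh1aa (85.8) and sdhc (84.2). In pools 3 and 4 the ranges of all 5 overlap each other, and in the GFP-negative library of pool 4 idh2 (111 TPM) was above mdh2 (101 TPM), so their order is not fixed by these libraries. In pools 1 and 2 the ranges of mdh2, idh2 and mdh1aa also overlap each other, as do those of acadm and sdhc. Within each library of pools 1 and 2, however, mdh1aa was below both mdh2 and idh2.

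Summed over the 56 kept IDs, the set took 2931 to 4210 TPM in pools 1 and 2 against 1118 to 1707 TPM in pools 3 and 4. The fatty acid oxidation enzymes, from the carnitine shuttle to the ETF, took 676 to 933 TPM in pools 1 and 2 against 263 to 409.9 TPM in pools 3 and 4. The citrate cycle took 1716 to 2531 TPM and 561 to 881 TPM. In both sums every library of pools 1 and 2 was above every library of pools 3 and 4. The ratio of fatty acid oxidation enzymes to the citrate cycle was 0.369 to 0.398 in pools 1 and 2 against 0.417 to 0.528 in pools 3 and 4. The citrate cycle sum was thus lower in pools 3 and 4 by the larger factor. That sum was led by mdh2, idh2 and mdh1aa. Their mean levels were 564, 507 and 383 TPM in pools 1 and 2 against 134, 98.6 and 85.8 TPM in pools 3 and 4. Over single IDs the median difference was -1.93 for the citrate cycle. It was -1.27 for the carnitine shuttle, -2.45 for the spiral, -1.98 for the auxiliary enzymes and -2.36 for the ETF. The order of the sums thus does not carry over to every role.

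Set against the summed cardiomyocyte markers of the same library, the order of the pools turned round. The set amounted to 8.63% to 10.4% of the marker sum in pools 1 and 2 against 22.8% to 43.8% in pools 3 and 4. Without the 3 most abundant markers, listed as MYL7, mb and TNNT2, it was 18.4% to 21.8% and 42.3% to 73.0%. Every role other than the regulators showed this, with no overlap between the pools. The metabolic transcripts thus differed between the pools by less than the cardiomyocyte markers did. How much of the set came from other cells in pools 3 and 4 was not tested.

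**Figure D4:**
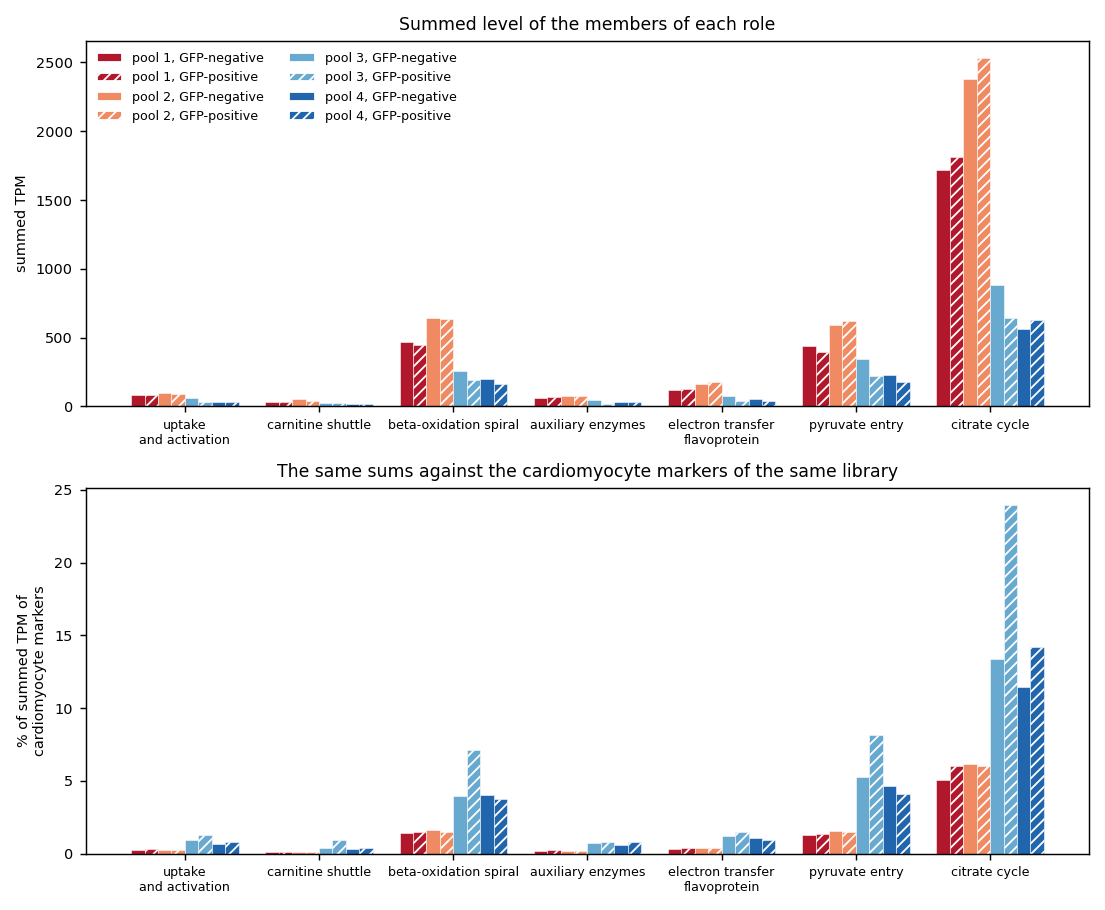
Summed level of each role other than the regulators in the 8 libraries. The upper panel gives TPM as deposited, where all bars of pools 1 and 2 (red and orange) exceed those of pools 3 and 4 (blue), and the lower panel gives the same sums as a percentage of the summed cardiomyocyte markers of that library, where the order is the opposite.

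Between the labelled sorts no gene of the set was called. limma with the pool as a block called 0 of 55 IDs, and 0% of the 13877 genes tested. In all, 3 of the 55 IDs had an unadjusted p under 0.05, about as many as chance alone gives. All 3 had a limma adjusted p of 0.853. These were etfa, at a GFP-positive minus GFP-negative difference of 1.24 (95% interval 0.28 to 2.20), sdhb, at 0.52 (95% interval 0.05 to 0.99), and the PDK2-listed ID ENSDARG00000059054, at -0.41 (95% interval -0.82 to -0.01). After scaling, etfa was higher in the GFP-positive library of all 4 pools. As deposited, etfa had 22.3 ± 8.09 TPM in the GFP-positive and 12.9 ± 12.9 TPM in the GFP-negative libraries (SD, n = 4 each). In pool 2 its deposited levels were 31.45 TPM in the GFP-negative and 30.41 TPM in the GFP-positive library. On both scales sdhb was higher in the GFP-positive library of all 4 pools. Its deposited levels were 34.2 ± 12.6 TPM in the GFP-positive and 26.7 ± 11.3 TPM in the GFP-negative libraries. The kinase ID was lower in all 4 on both scales. It had 60.8 ± 21.7 TPM in the GFP-positive and 91.2 ± 37.8 TPM in the GFP-negative libraries. A direction shared by all 4 pools does not set these IDs apart. After scaling, decr1, idh3b and ogdha ENSDARG00000034270 were also higher in the GFP-positive library of all 4 pools. Lower in all 4 were also acsl1a, acat1 and slc27a1a ENSDARG00000104949. SDs over the 4 libraries of a sort include the difference between pools, so they do not measure the spread of the paired difference.

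For the abundant members the intervals were narrower but still allow differences. idh2 had 303 ± 259.6 TPM in the GFP-positive and 302 ± 225 TPM in the GFP-negative libraries, and its difference was -0.01 (95% interval -0.44 to 0.42). mdh2 differed by 0.18 (95% interval -0.30 to 0.65), cs by 0.25 (95% interval -0.22 to 0.71) and acadvl by -0.06 (95% interval -0.53 to 0.41). Across the set 32 of 55 IDs were higher in the GFP-positive libraries, the median difference was 0.07 and the range was -0.99 to 1.24. A p that misses the threshold does not show that the sorts are alike.

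The direction within a pool varied. The GFP-positive library was the higher for 36 of 55 IDs in pool 1 (65.5%) and for 41 in pool 2 (74.5%), and the lower for 37 in pool 3. In pool 4 it was the higher for 30. Over all genes tested the share higher was 47.9% to 52.9% in the 4 pools. Median differences of the set were 0.17, 0.25, -0.32 and 0.11 in pools 1 to 4. Those of the cardiomyocyte markers were -0.13, 0.25, -0.92 and 0.06, so in pool 3 the markers were also lower in the GFP-positive library, 29 of 33 of them. These differences come from 1 library of each sort per pool and have no replicate within the pool.

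**Figure D5:**
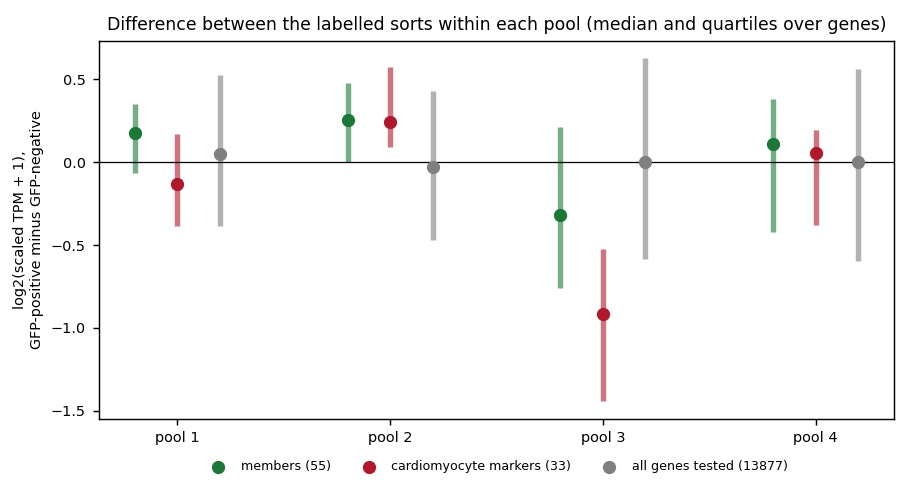
Difference between the labelled sorts within each pool on the log2(scaled TPM + 1) scale. Points are medians and bars the quartiles over the 55 metabolic IDs, the 33 cardiomyocyte markers and all 13877 genes tested; in pool 3 the metabolic genes and the markers lie below 0, and the bars of the metabolic genes reach 0 or cross it in all 4 pools.

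Neighbouring pathways, taken from lists of genes outside the set, are given by their counts, to be read against the 12.9% of all genes that the F test called. Their median differences are after scaling. For lists whose sum was highest in a library of pools 3 and 4, the sum as deposited is given. Of 12 tested genes of fatty acid binding, uptake and lipolysis, 5 were called by the limma F test, all lower in pools 3 and 4, with a median difference of -0.31. The most abundant were the fatty acid binding proteins fabp4a, at 486 to 1103 TPM in pools 1 and 2 against 220.5 to 328 TPM in pools 3 and 4 (adjusted p = 0.00331), and fabp3, the heart form in mammals, at 405 to 623 and 115 to 223 TPM (adjusted p = 0.00195). Of 30 other mitochondrial fatty acid and branched-chain enzymes, 8 were called, all lower, with a median of -1.24. The most abundant were acadsb, at 24.7 to 42.6 and 6.99 to 19.1 TPM, and mccc2, at 25.5 to 51.9 and 4.87 to 12.4 TPM. Both were among the 8.

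Of 19 tested genes of peroxisomal fatty acid oxidation, the limma F test called 0, with a median of -0.46, and in the single contrasts 1 was called higher in pool 3 than in pool 1. As deposited, the 20 IDs of that list summed to 87.9 to 137 TPM in pools 1 and 2 against 113 to 237 TPM in pools 3 and 4. pex19, a peroxisome assembly gene, was listed at 9.51 to 26.6 TPM in pools 1 and 2 against 6.89 to 33.0 TPM in pools 3 and 4 (limma adjusted p = 0.135). Of 22 other citrate cycle and pyruvate genes, 9 were called, 8 lower and 1 higher in pools 3 and 4, with a median of -1.24. The 1 called higher was glud1a, a glutamate dehydrogenase that feeds oxoglutarate, at 10.1 to 23.1 and 52.7 to 129 TPM (limma adjusted p = 0.0403).

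Of 30 genes of glycolysis, 17 were called, all lower in pools 3 and 4, with a median of -1.83. gapdh was listed at 2264 to 3218 TPM in pools 1 and 2 against 99.8 to 424 TPM in pools 3 and 4 (limma F test adjusted p = 0.00143), and the more abundant ID listed as ALDOA, ENSDARG00000011665, at 567 to 983 and 115 to 259.8 TPM (adjusted p = 0.00102). Of 17 genes of fatty acid synthesis and esterification, 1 was called, agpat3, an acyltransferase of phospholipid synthesis, at 21.3 to 35.5 and 7.78 to 21.7 TPM (adjusted p = 0.0184). The median of that list was -0.09, close to that of all genes. Its other abundant gene, an ID listed as ELOVL1, ENSDARG00000103735, was at 23.4 to 32.7 and 43.3 to 98.2 TPM (adjusted p = 0.869). As deposited, the 23 IDs of that list summed to 111 to 165 TPM in pools 1 and 2 against 175 to 261 TPM in pools 3 and 4. Of 26 further regulators of mitochondrial genes, 4 were called, a share near that of all genes, all lower, with a median of -0.83. As deposited, the 31 IDs of that list summed to 144 to 199 TPM in pools 1 and 2 against 148 to 307 TPM in pools 3 and 4. The most abundant of these, sirt1 and the ID listed as HIF1A, were at 7.59 to 12.8 and 26.3 to 42.5 TPM in pools 1 and 2 against 13.3 to 33.2 and 35.3 to 82.8 TPM in pools 3 and 4, and neither was called (adjusted p = 0.852 and 0.39). None of these lists had a gene called between the labelled sorts.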

How the data were processed

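RNA was sequenced from 8 libraries, 4 pools of ventricles each sorted into GFP-negative and GFP-positive cells. Per the labels' protocols, each library started from 0.2 to 0.6 ng of RNA, was amplified in 2 rounds with a kit for single cells and gave reads of 60 bases from 1 end; that text also names another kit and mCherry cells. The submitters' processing notes name CASAVA 1.8.2, cutadapt, RSEM 1.2.25 and build Zv9. The deposited values are TPM (columns sum to 1000000, 2 decimals), so sequencing depth is unknown. Symbols came from a gene name table covering 25925 of 31388 IDs, and from RefSeq synonyms. Of 371 list entries, 19 were not matched.

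Scaling used the mean of log ratios between libraries, without weights, after trimming 30% of ratios and 5% of abundances. limma 3.58.1 (R 4.3.3) was run on log2(scaled TPM + 1) over the 13877 genes that reached 1 TPM in 4 or more libraries. Its prior variance followed the mean, its terms were pool and labelled sort, and p-values were adjusted by Benjamini-Hochberg. Pairing is stated in the series' design text, through the pool label. Scripts were tested on simulated data. Tables and figures used Python 3.11.15, pandas 2.3.3 and matplotlib 3.10.9.

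The members and lists, the genes given with every library and the ratios were chosen with earlier results of these data known. Genes given with every library were a fixed list covering every role. Other members were given by ranges, and of other pathways the 2 genes of highest mean TPM were named, with any called against most of their list. A few genes that this rule names are not reported here. Alternatives covered scaling, pseudocount, filter, prior, block, summed IDs and each library and pool left out. A ratio without the 3 most abundant cardiomyocyte markers was added after the data were seen.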

Additional observations from a re-analysis of the deposited data

Results flagged for a closer look

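In 5 of 112 groups of 4 libraries (each kept ID in each labelled sort, TPM as deposited), 1 library lay farther from the rest than the 95% critical value of Dixon's ratio allows. For 4 values drawn from 1 normal population, chance gives about 1 in 20 groups. Among the GFP-negative libraries, slc25a20, the acylcarnitine carrier, stood out at 6.72 TPM in pool 2. echs1, the enoyl-CoA hydratase, stood out in the same sort at 13.37 TPM in pool 4, its lowest value there. Among the GFP-positive libraries, the mpc2 ID ENSDARG00000024478 stood out at 37.78 TPM in pool 2. idh3b, an isocitrate dehydrogenase subunit, stood out at 19.44 TPM in pool 4, again as the lowest. The OGDH-listed ID ENSDARG00000103428 stood out at 26.54 TPM in pool 3, which no other library of that ID came near. Each group spans pools 1 and 2 and pools 3 and 4, which differed for most IDs. The number of such groups therefore cannot be set against the 1 in 20 of chance.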

How the results depend on the processing

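No member was called between the labelled sorts under any setting, without the replicate block (0 calls) or with a library or pool left out (0 to 0). The F test of pool called 28 to 43 members under other settings, lowest with TPM as deposited, and 30 to 42 with a library or pool left out. Non-overlapping members numbered 33 to 46, and 46 to 49 with one left out. Fewer libraries make overlap rarer for any gene. Of the 13877 genes tested, 2017 were higher in all libraries of pools 1 and 2, against 3099 without pool 4 and 869 with TPM as deposited. With TPM as deposited, 19 members were called lower in pool 3 than in pool 1 (4.24% of all genes). It was 20 for pool 4 against pool 1 (3.33%) and 26 for pool 4 against pool 2 (4.24%). With a library or pool left out, the counts ranged from 13 to 43 for pool 3 below pool 1, 6 to 38 for pool 4 below pool 1, 21 to 43 for pool 3 below pool 2 and 13 to 42 for pool 4 below pool 2. Over all genes, the F test called 1787, of them 1131 lower in pools 3 and 4, and 4007 with TPM as deposited, so which genes count as changed depends on the scaling.

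Of the differences between pools, 7 were reversed under another setting, in 6 IDs. With TPM as deposited the mean difference was 0.68 for slc27a1a ENSDARG00000006240, 0.0585 for acsl1a, 0.62 for cpt1aa, 0.75 for pdk2b ENSDARG00000059054, 0.69 for ogdha ENSDARG00000103428 and 0.24 for suclg2. With totals without the 50 most abundant genes that of cpt1aa was 0.000443. With a library or pool left out, cpt1aa ranged from -0.58 to 0.27 and ogdha ENSDARG00000103428 from -1.06 to 0.74. Calls were lost 40 times under other settings, in 18 IDs, and 77 times with a library or pool left out, in 16 IDs. Depth is unknown, so values near 0 (cpt1b, the second mpc2 ID) cannot be told from undetected ones. The causes were not tested.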
